A study of Homo sapiens with 18 samples.

Results

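The collagen chain genes are the 44 protein-coding genes whose symbol is COL, a number, A and a number, out of 35168 genes in the deposited tables, and all 44 such symbols of the annotation were found there. Their RNA was followed in H1 cells, a human embryonic stem cell (hESC) line, either wild type (WT) or with a loss-of-function deletion of 1 base in USB1 (hereafter USB1 mutant), made by CRISPR/Cas9 with a donor oligonucleotide and picked as colonies. USB1 encodes an RNA exonuclease that trims the 3′ ends of U6 snRNA. Both genotypes were sampled as undifferentiated hESCs (D0), on day 16 of a serum-free hematopoietic differentiation (D16, described as CD34+/CD45+ progenitors) and on day 30 (D30, described as mature blood cells), with 3 libraries per genotype and day and 18 libraries in all. The number of mutant clones is not given in the sources used here, and the hESCs were kept on Matrigel or, before they were moved to Matrigel, on mouse feeder cells.

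Collagens are made of 3 chains wound into a triple helix, and most types need chains from particular genes, so that a cell usually makes several chain genes at once. Fibril-forming collagens carry tensile load, type IV collagen forms the sheet of basement membranes, and fibril-associated collagens (FACIT) decorate fibrils. Multiplexins sit in basement membrane zones and release antiangiogenic fragments from their ends, and transmembrane collagens are held in the cell surface. In blood formation, collagens are known mainly as products of the stroma and vessel walls, while platelets and leukocytes carry collagen receptors.

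Levels within a gene are given in CPM (counts scaled to a common library size within each day), and levels compared between genes or days in TPM (transcript abundance, which also corrects for transcript length). Changes are log2 fold changes of counts ± standard error (SE) from edgeR's quasi-likelihood test, and padj is its Benjamini-Hochberg adjusted p over all genes tested. A gene was called at padj under 0.1. Libraries are listed as replicates 1, 2 and 3. The labels do not say that replicates were separate cultures, so each p measures the spread between these libraries, which may be technical. Since these are bulk libraries, fewer cells of a type and less RNA per cell cannot be told apart.

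Total counts were 4125125 to 19368927 per library, the lowest being mutant replicate 3 at D30. USB1 itself had 79.1, 86.1 and 93.1 CPM in WT and 91.0, 93.3 and 94.5 CPM in the mutant at D0, and it was called on none of the 3 days (log2 fold changes 0.11 at D0, -0.09 at D16 and -0.24 at D30, padj 0.623, 0.668 and 0.432). The level of an mRNA does not show a deletion of 1 base, so this does not check the genotype labels. The days matched their markers: the summed level of 6 pluripotency markers was at least 2140 TPM in each D0 library and at most 32.7 TPM later, and that of 6 hematopoietic markers was at most 4.09 TPM at D0 and at least 688 TPM later. Stromal markers summed to 1560 to 1830 TPM at D0. Of these sums TAGLN gave 1154 to 1451 TPM and THY1, also carried by hESCs, 267 to 331 TPM. DCN (decorin) and LUM (lumican) had at most 2.58 and 1.10 TPM. Of the 12 stromal markers, 11 had a mean of at least 1 TPM in each genotype. MFAP5 had at least 17.48 TPM, PDGFRB 8.139 to 19.52 TPM and FBN1 6.705 to 14.86 TPM. Whether stromal cells were present at D0 was not tested.

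Type IV chain genes lie head to head in pairs, and the stretch between the starts of COL4A1 and COL4A2 is printed because this pair rose together in D16 mutant cells, as described below. By RefSeq (GRCh38.p14), 126 bases separate the starts of COL4A1 and COL4A2 on chromosome 13, 418 bases those of COL4A4 and COL4A3 on chromosome 2, and 379 bases those of COL4A6 and COL4A5 on chromosome X. The upstream bases of COL8A2, whose genotype difference changed sign between days, and of COL18A1, the most abundant collagen gene, are also shown. Only bases outside annotated exons are printed, 5′ to 3′ on the strand named, and capitals mark CCAAT or GGGCGG on either strand.
COL4A1-COL4A2 gap (chr13:110307158-110307257, + strand, away from COL4A1): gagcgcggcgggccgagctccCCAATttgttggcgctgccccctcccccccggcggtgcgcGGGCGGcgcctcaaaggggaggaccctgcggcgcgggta
COL8A2 (chr1:36125223-36125472, - strand): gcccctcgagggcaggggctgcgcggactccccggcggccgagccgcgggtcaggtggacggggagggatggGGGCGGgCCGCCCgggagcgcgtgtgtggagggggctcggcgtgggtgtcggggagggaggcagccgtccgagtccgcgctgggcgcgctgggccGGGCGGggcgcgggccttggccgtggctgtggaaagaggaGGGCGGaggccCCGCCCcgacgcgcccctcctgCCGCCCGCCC
COL18A1 (chr21:45404944-45405164, + strand): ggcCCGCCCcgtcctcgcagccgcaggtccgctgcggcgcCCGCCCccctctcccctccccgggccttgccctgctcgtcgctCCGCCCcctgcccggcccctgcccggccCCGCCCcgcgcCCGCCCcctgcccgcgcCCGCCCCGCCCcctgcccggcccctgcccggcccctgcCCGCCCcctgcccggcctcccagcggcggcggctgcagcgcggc

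The COL4A1-COL4A2 stretch held 1 CCAAT and 1 GGGCGG in 100 bases, while the COL8A2 stretch held no CCAAT and 7 copies of GGGCGG, and the COL18A1 stretch no CCAAT and 8 copies. Overlapping matches are counted separately. RefSeq promoter windows were given for 32 of the 44 genes, and in the 250 bases before the start 18 of these 32 held GGGCGG, 9 CCAAT, 5 TATAAA and 3 AGATAA on either strand. Over all 35116 windows the shares were 42.6%, 32.0%, 10.7% and 9.17%. A match is a run of letters and not a shown binding site. The genes without a window were COL1A1, COL1A2, COL2A1, COL3A1, COL5A2, COL6A1, COL6A5, COL8A1, COL9A3, COL14A1, COL20A1 and COL22A1.

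Undifferentiated hESCs carried a broad set of collagen transcripts. At D0, 36 of the 44 genes had a mean of at least 1 TPM in WT and 34 in the mutant, and 19 and 17 had at least 10 TPM. The summed collagen level was 1053, 1434 and 1732 TPM in WT and 1130, 1308 and 1297 TPM in the mutant, so that the genotypes overlapped and replicate 1 was the lowest of both. COL18A1, whose C-terminal fragment is endostatin, led with a mean of 298 TPM over the 6 libraries. It was followed by the basement membrane chains COL4A1 at 131 TPM and COL4A2 at 102 TPM, the FACIT chain COL9A3 at 104 TPM, the type V chain COL5A2 at 70.5 TPM and the type I chain COL1A2 at 65.3 TPM. COL10A1, the collagen of hypertrophic cartilage, and COL11A2 had 0 counts in all WT libraries of D0.

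**Figure D1:**
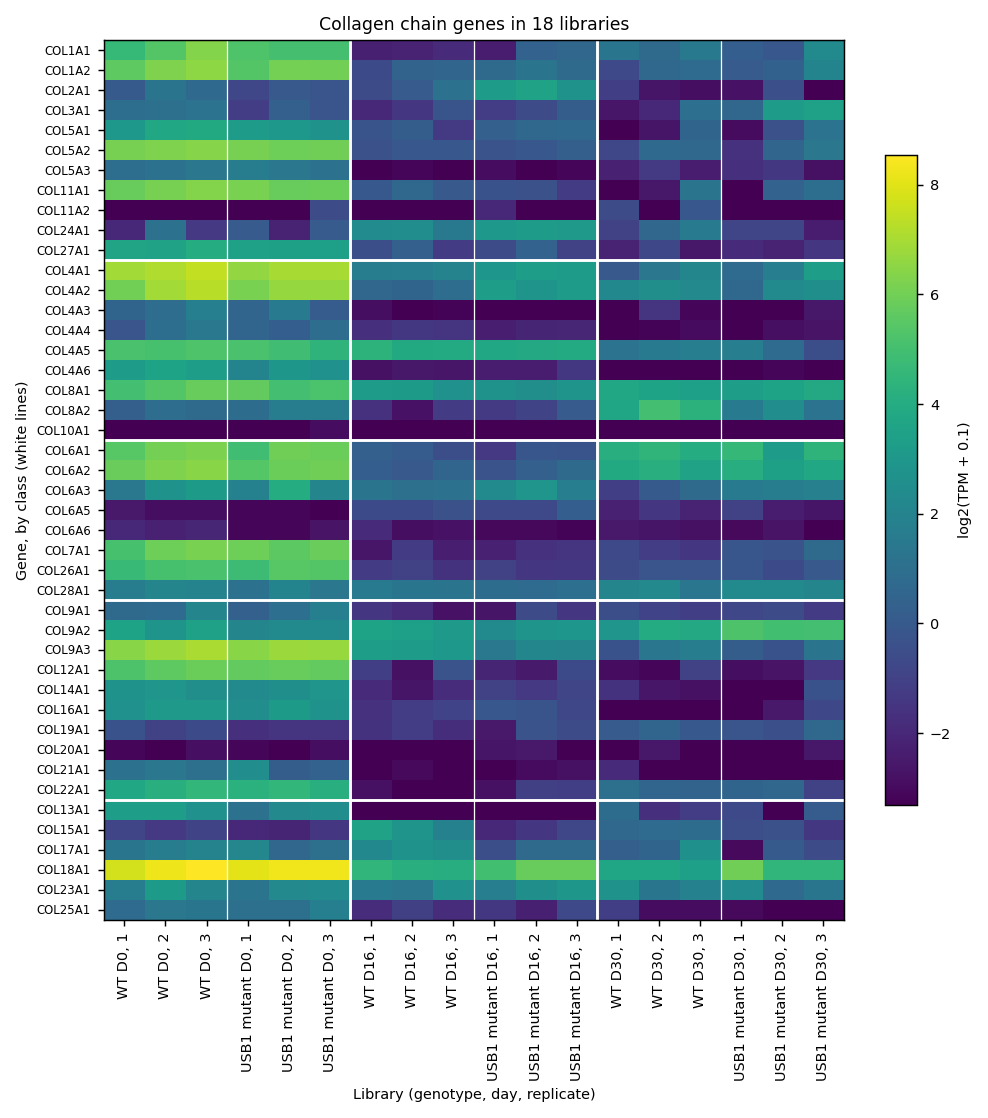
Level of each of the 44 collagen genes (rows, in 5 classes divided by white lines: fibril-forming, network, type VI and VII with related types, FACIT, and multiplexin or transmembrane) in each of the 18 libraries (columns), as log2(TPM + 0.1). The 6 D0 libraries on the left are the brightest, with COL18A1 at a mean of 298 TPM, and most rows darken at D16 and D30.

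The summed collagen level was lower by far in differentiated cells. It was 117, 103 and 94.9 TPM in WT and 113, 155 and 153 TPM in the mutant at D16, and 113, 147 and 133 TPM in WT and 185, 133 and 170 TPM in the mutant at D30. Within each of these days the genotypes overlapped. At D16 COL18A1 and COL4A5 led in both genotypes, with means of 18.9 and 16.8 TPM in WT and 47.2 and 14.2 TPM in the mutant. The next in WT were COL9A2 (10.03 TPM), COL9A3 (8.93 TPM), COL8A1 (8.01 TPM) and COL15A1 (7.28 TPM), and in the mutant COL2A1 (8.93 TPM), COL4A1 (8.72 TPM), COL24A1 (8.53 TPM) and COL4A2 (8.52 TPM). In WT COL18A1 (16.7 to 22.2 TPM) and COL4A5 (14.7 to 20.5 TPM) overlapped. At D30 the order of the means differed by genotype. In WT COL8A2 led with a mean of 21.6 TPM, before COL6A1 (18.5 TPM), COL6A2 (14.3 TPM), COL9A2 (12.4 TPM), COL8A1 (11.8 TPM) and COL18A1 (11.8 TPM). WT COL8A2 (13.1 to 31.8 TPM) and COL6A1 (16.2 to 21.6 TPM) overlapped. In the mutant COL18A1 (35.9 TPM) and COL9A2 (33.5 TPM) led, before COL6A1 (18.1 TPM), COL6A2 (13.7 TPM) and COL8A1 (12.1 TPM). Mutant COL18A1 ran from 22.3 to 63.0 TPM and mutant COL9A2 from 31.2 to 37.2 TPM, so these leaders did not differ beyond the spread of the libraries.

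The classes took different shares of the collagen TPM as the cells differentiated. In WT, type VI, VII and related collagens took 16.5% ± 0.820 (SD, n = 3) at D0, 7.50% ± 0.303 at D16 and 29.7% ± 4.65 at D30. FACIT collagens took 19.3% ± 0.672 of WT collagen TPM at D16 and 8.84% ± 0.645 of mutant collagen TPM, and the order was the opposite at D30, with 13.4% ± 2.58 in WT and 23.6% ± 2.19 in the mutant. Network collagens took 33.2% ± 3.62 at D30 in WT and 16.9% ± 5.59 in the mutant. These shares were not tested.

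From D0 to D16 in WT, 41 collagen genes could be tested, of which 29 were called lower and 4 higher, where over all 16829 genes tested 39.3% were called lower and 37% higher. The median log2 change of the collagen genes was -3.57, and that of all genes tested was -0.037. The fall ran through every class, with 8 of 11 fibril-forming, 7 of 8 network, 4 of 7 type VI, VII and related, 7 of 9 FACIT and 3 of 6 multiplexin or transmembrane genes called lower. COL13A1, a transmembrane collagen, went from 122, 115 and 55 counts to 0 in all 3 D16 libraries and was at least 116-fold lower, taking 3 counts over the group as the limit, which covers counting error only. COL12A1, a FACIT chain of dense connective tissue, went from 37.9, 48.1 and 58.7 TPM to 0.367, 0.0431 and 0.728 TPM (log2 change -8.88 ± 0.61, padj 3.21e-10). COL7A1, the chain of the anchoring fibrils of skin, went from 33.8, 61.3 and 71.0 TPM to 0.0624, 0.332 and 0.0973 TPM (-8.42 ± 0.43, padj 4.76e-12). COL22A1, which lies on chromosome 8, changed by -9.91 ± 0.55 (padj 1.79e-11), COL5A3 by -7.78 ± 0.68 (padj 9.58e-09) and COL1A1 by -6.74 ± 0.66 (padj 4.09e-08). In none of these genes did the D0 and D16 libraries overlap.

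The genes that rose against this trend were COL24A1, COL15A1, COL6A5 and COL9A2. COL24A1, a fibril-forming chain, had 9, 11 and 9 counts in the WT libraries of D0 and 124, 308 and 207 counts in those of D16 (4.39 ± 0.46, padj 1.11e-07). COL15A1, a multiplexin of vascular and muscle basement membranes, had 20, 14 and 14 counts and then 311, 387 and 231 counts (4.32 ± 0.39, padj 1.27e-08). The change of COL6A5, a type VI chain, was 3.92 ± 0.64 (padj 2.46e-05), although its highest D16 level in WT was 0.675 TPM, and that of COL9A2 was 0.79 ± 0.25 (padj 0.00845), with TPM values that overlapped between the days (7.08 to 11.7 and 8.09 to 11.9 TPM). COL4A5, a type IV chain, stood at 35.5, 33.6 and 38.4 TPM at D0 and still at 20.5, 14.7 and 15.3 TPM at D16. It was not called in the main fit (-0.28 ± 0.17, padj 0.142). It was called lower with DESeq2 (-0.32, padj 0.0497), with RLE scaling (-0.32, padj 0.094) and with lengths as offsets (-0.66, padj 0.0587).

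From D16 to D30 in WT, collagen genes moved both ways, with 12 of 41 called higher and 16 lower, beside 31.6% and 35.1% of all genes tested. COL8A2, a short-chain network collagen, had 0.224, 0.0501 and 0.331 TPM at D16 and 13.1, 31.8 and 19.7 TPM at D30 (6.64 ± 0.51, padj 5.49e-09). The type VI chains COL6A1 and COL6A2 rose by 4.27 ± 0.37 (padj 2.19e-08) and 3.40 ± 0.30 (padj 2.39e-08), COL6A1 from 1.15, 0.987 and 0.630 TPM to 17.5, 21.6 and 16.2 TPM. COL22A1 (chromosome 8) rose by 6.58 ± 0.68 (padj 2.22e-07) and COL5A3 by 4.54 ± 0.87 (padj 0.000207). COL11A2 and COL13A1 had 0 counts in WT at D16 and were at least 22.0-fold and 9.92-fold higher at D30, although COL11A2 had 21, 0 and 39 counts in the 3 libraries. COL16A1 fell from 40 counts over the WT libraries to 0, at least 12.1-fold, and COL4A6 from 13 counts to 0, at least 3.93-fold. The other large falls were in COL2A1 (-4.58 ± 0.56, padj 1.40e-06), COL4A4 (-4.56 ± 0.62, padj 5.44e-06), COL27A1 (-3.08 ± 0.45, padj 1.11e-05) and COL4A5 (-2.96 ± 0.19, padj 6.35e-10). Setting genes at 0 in a group to their bound left the median at -3.57 for D0 to D16 and -0.029 for D16 to D30.

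In undifferentiated hESCs few collagen genes were called between genotypes in the main fit, which has no replicate block. Of 37 genes tested at D0, 1 was called higher and 2 lower in the USB1 mutant, beside 1.07% higher and 1.87% lower of all 14719 genes tested, and the median log2 fold change was -0.084 against 0.001. COL9A2, a chain of the type IX collagen of cartilage, had 17.9, 10.4 and 13.8 CPM in WT and 6.08, 6.15 and 7.80 CPM in the mutant (-1.06 ± 0.22, padj 0.0533). COL4A6 had 38.1, 35.0 and 38.8 CPM in WT and 19.2, 26.5 and 26.1 CPM in the mutant (-0.63 ± 0.14, padj 0.0594). COL8A2 had 3.56, 4.66 and 5.07 CPM in WT and 6.18, 9.02 and 9.75 CPM in the mutant (0.92 ± 0.23, padj 0.0995). The genotypes did not overlap in these 3 genes, as in 21.3% of all genes tested and in all 432 genes called at D0. All 3 calls were lost with transcript lengths as offsets (padj 0.142, 0.206 and 0.237). Leaving out a library ended that of COL9A2 for WT replicate 3 and each mutant library (padj 0.112 to 0.152), that of COL4A6 for WT replicates 2 and 3 and mutant replicate 3 (0.123 to 0.179), and that of COL8A2 for all but mutant replicate 1 (0.127 to 0.399).

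Replicates with the same number deviated together at D0, and with the replicate number as a block 3 collagen genes were called higher and 5 lower, where the block raised the calls over all genes tested to 6.04% higher and 5.63% lower. The block added COL6A3 (0.34, padj 0.0834) and COL26A1 (0.38, padj 0.0284) as higher, and COL1A2 (-0.30, padj 0.0704), COL3A1 (-1.29, padj 0.0411) and COL6A2 (-0.25, padj 0.053) as lower. COL3A1, the chain of type III collagen, had 6.54, 7.17 and 7.21 CPM in WT and 1.495, 4.46 and 2.89 CPM in the mutant, with no overlap, and missed the threshold without the block (-1.24 ± 0.32, padj 0.109). It was called with DESeq2 (padj 0.0291). Without replicate 1 of both genotypes, which had the lowest collagen sums, 2 collagen genes were called higher and 9 lower, beside 3.99% and 4.38% of all genes tested in that fit. Among those called lower were the type I chains COL1A1 (-0.78, padj 0.00687) and COL1A2 (-0.39, padj 0.0369), COL3A1 (-0.99, padj 0.0428) and the type V chains COL5A1 (-0.71, padj 0.00312) and COL5A2 (-0.38, padj 0.0304). This setting was added after the data were seen. It leaves out libraries that stood out by the same collagen levels, so its calls are no independent result.

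At D16 the collagen genes split in direction. Of 31 genes tested, 7 were called higher and 7 lower in the USB1 mutant, beside 13.1% higher and 15.3% lower of all 14528 genes tested, and the median log2 fold change was 0.526 against 0.013 for all genes tested. In CPM the genotypes did not overlap in any of these 14 genes, as in 38.1% of all genes tested and 92.2% of all genes called at D16. With the replicate block 11 were called higher, beside 18.3% higher and 18.9% lower of all genes tested, the added ones being COL1A1 (1.18, padj 0.0682), COL1A2 (0.76, padj 0.0443), COL5A1 (0.81, padj 0.026) and COL23A1 (0.60, padj 0.0574).

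**Figure D2:**
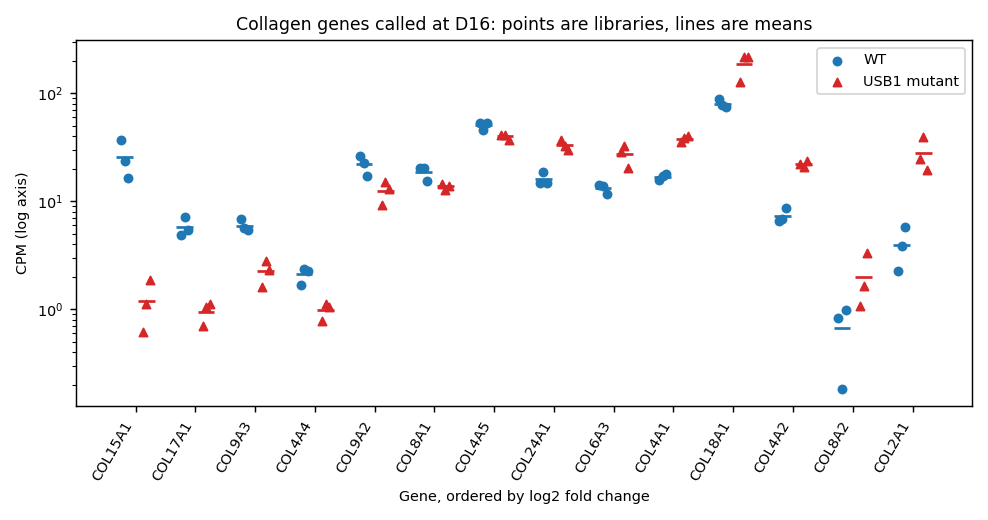
CPM on a log axis (y) of the 14 collagen genes called at D16, ordered along the x axis by log2 fold change, with circles for the 3 WT libraries, triangles for the 3 USB1 mutant libraries and lines for the means. COL15A1 at the left was the most reduced in the mutant (-4.38) and COL2A1 at the right the most raised (2.77), and the circles and triangles of each gene are apart.

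Among fibril-forming collagens at D16, 2 of 9 tested were called, COL2A1 and COL24A1, both higher (13.1% higher and 15.3% lower over all genes). COL2A1, the chain of the type II collagen of cartilage, had 2.27, 3.85 and 5.82 CPM in WT and 24.6, 39.7 and 19.7 CPM in the mutant (2.77 ± 0.33, padj 0.000537). The summed level of 6 other cartilage markers was 0.358 to 0.966 TPM in WT and 1.03 to 2.23 TPM in the mutant. SOX9 had 0 counts in WT and at most 0.0977 TPM in the mutant. COMP gave 0.327, 1.66 and 1.27 TPM of the mutant sums. Of the 6, 0 passed the count filter at D16, so the genotypes were not compared in them. Their part in the result was not tested. COL24A1 had 14.8, 18.8 and 14.7 CPM in WT and 36.8, 32.8 and 30.1 CPM in the mutant (1.04 ± 0.16, padj 0.00157). The type I chain COL1A1 had under 1 CPM in each WT library and 0.464, 2.46 and 2.32 CPM in the mutant (1.19 ± 0.56, padj 0.159), so the genotypes overlapped.

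Of the network collagens, all 6 tested at D16 were called, 3 in each direction (13.1% higher and 15.3% lower over all genes). COL4A1 had 15.7, 17.2 and 17.9 CPM in WT and 35.2, 38.4 and 40.3 CPM in the mutant (1.16 ± 0.14, padj 0.000493). COL4A2 had 6.58, 6.90 and 8.72 CPM in WT and 22.2, 20.7 and 23.4 CPM in the mutant (1.57 ± 0.17, padj 0.000342). These are the chains of the ubiquitous type IV network, encoded at chr13:110148963-110307157 and chr13:110305812-110513209 in GRCh38, on opposite strands with a short overlap in the annotation. The sources used here do not say if strand was used to assign reads, so reads from that overlap could be assigned to either gene. COL8A2 had 0.837, 0.183 and 0.993 CPM in WT and 1.08, 1.64 and 3.31 CPM in the mutant (1.65 ± 0.59, padj 0.0749), which at 3 to 50 counts per library is a low level, and its TPM values overlapped (0.0501 to 0.331 TPM in WT and 0.300 to 0.960 TPM in the mutant).

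The lower network chains at D16 were COL4A4, COL4A5 and COL8A1. COL4A4, found with COL4A3 and COL4A5 in the glomerular basement membrane, had 1.67, 2.38 and 2.27 CPM in WT and 0.773, 1.12 and 1.06 CPM in the mutant (-1.11 ± 0.35, padj 0.0464). COL4A5 (-0.34 ± 0.13, padj 0.0882) and COL8A1 (-0.45 ± 0.17, padj 0.082) fell by less, COL4A5 from 53.6, 45.6 and 53.4 CPM to 41.6, 41.4 and 37.2 CPM. DESeq2 did not call COL4A4 (padj 0.128), COL4A5 (padj 0.117) or COL8A1 (padj 0.12). The call of COL4A5 was lost without any 1 of the 6 libraries (padj 0.105 to 0.252), that of COL8A1 without any but WT replicate 3 (0.140 to 0.258), and that of COL4A4 without WT replicate 2 or mutant replicate 1 or 3 (0.115 to 0.174). The call of COL8A2 was lost without WT replicate 1 or 2 or without mutant replicate 2 or 3, with padj up to 0.293. With lengths as offsets the D16 calls of COL8A2 (padj 0.18), COL4A5 (padj 0.188) and COL8A1 (padj 0.165) were lost.

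The head-to-head type IV pairs behaved differently from each other over the days. COL4A1 and COL4A2 were both high at D0 and both higher in mutant D16 cells. COL4A3 and COL4A4 were both low at D0, and at D16 COL4A3 had at most 0.239 CPM in WT and 0 counts in all 3 mutant libraries. COL4A4 was still at 1.67, 2.38 and 2.27 CPM in WT at D16. In WT from D0 to D16 COL4A3 changed by -5.59 ± 0.75 (padj 4.81e-06) and COL4A4 by -1.66 ± 0.37 (padj 0.00057). The third pair also came apart: COL4A5 was still at 14.7 to 20.5 TPM in WT at D16, while COL4A6 went from 9.43, 11.6 and 10.1 TPM at D0 to at most 0.0684 TPM (WT D0 to D16, -6.62 ± 0.29, padj 5.05e-12).

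**Figure D3:**
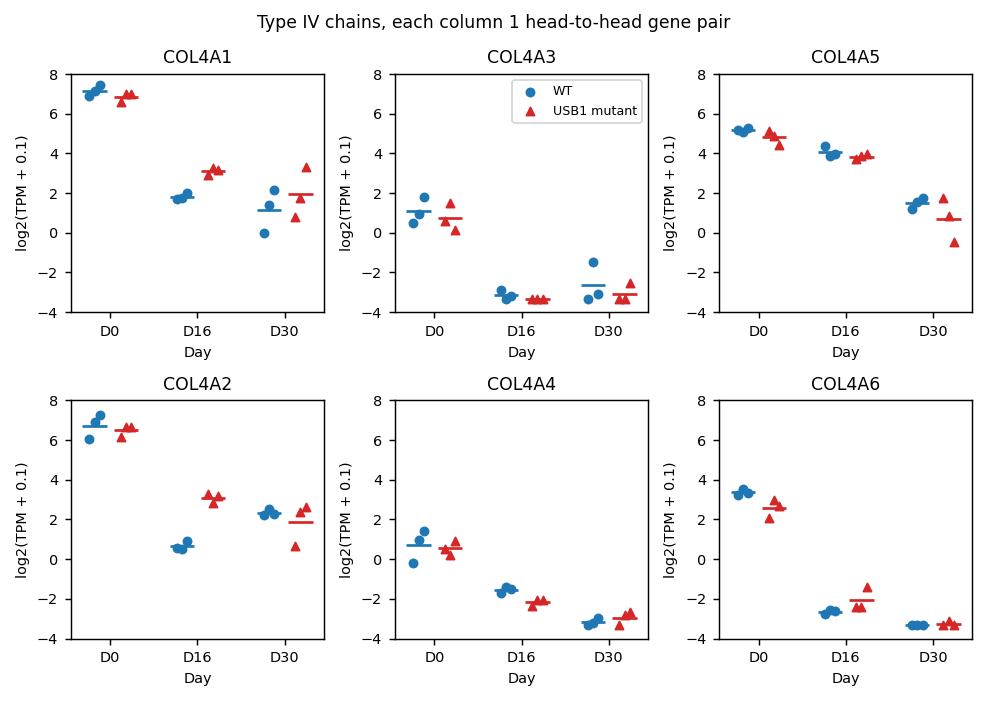
Level of the 6 type IV chain genes, as log2(TPM + 0.1) on the y axis against day on the x axis, with each column of panels holding 1 head-to-head gene pair, circles for WT libraries, triangles for USB1 mutant libraries and lines for means. In the left column the mutant triangles lie above the WT circles for both COL4A1 and COL4A2 at D16, and in the right column COL4A5 stays up at D16 where COL4A6 does not.

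COL4A2 also changed in the transcript length that the quantification assigned to it. Its average effective length at D16 was 5563, 6011 and 5461 bases in WT and 2800, 3542 and 3317 bases in the mutant, with no overlap. The difference in TPM was therefore wider than that in counts, with 1.39, 1.31 and 1.77 TPM in WT and 9.63, 6.99 and 8.95 TPM in the mutant. The TPM ratio of COL4A1 to COL4A2 was 2.30, 2.53 and 2.19 in WT and 0.782, 1.38 and 1.01 in the mutant. An exact two-sided permutation test gave p = 0.1, the smallest possible with 3 against 3 libraries, and adjusted p = 0.25 over the 10 ratios tested. In WT from D16 to D30, COL4A2 was not called, but with lengths as offsets it was called higher (1.48, padj 0.00277). The TPM ratio of COL1A1 to COL1A2 gave exact permutation p of 0.9 at D0 and 0.3 at D30, and that of COL6A1 to COL6A2 gave 0.6 and 0.9, each with overlapping genotypes.

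**Figure D4:**
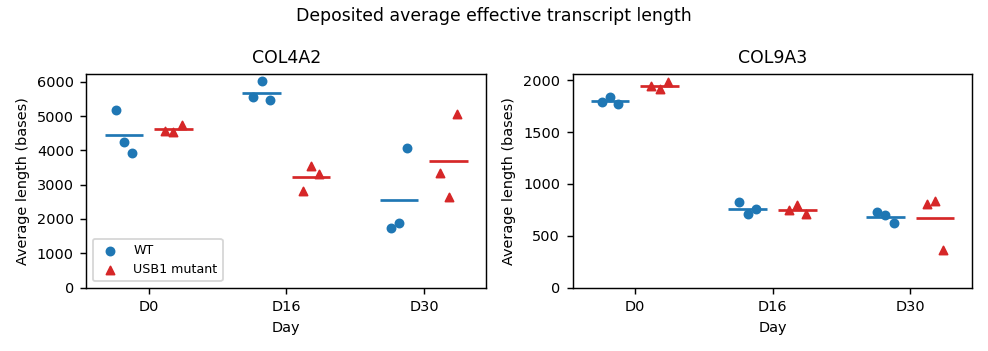
Average effective transcript length in bases (y, from 0) that the deposited tables give for COL4A2 and COL9A3 on each day (x), with circles for WT libraries, triangles for USB1 mutant libraries and lines for means. COL4A2 lies at 5461 to 6011 bases in WT and 2800 to 3542 bases in the mutant at D16, and COL9A3 at 1769 to 1980 bases at D0 but 363 to 836 bases later.

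Of the type VI, VII and related genes, 6 were tested at D16 and only COL6A3 was called, higher (13.1% higher over all genes). COL6A3, the largest chain of type VI collagen, had 14.2, 13.8 and 11.8 CPM in WT and 28.8, 32.9 and 20.2 CPM in the mutant (1.04 ± 0.19, padj 0.00424). Its partner chains did not pass the test, COL6A1 with -0.56 ± 0.38 (padj 0.324) and COL6A2 with 0.00 ± 0.33 (padj 0.999).

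Of 5 FACIT chains tested at D16, the type IX chains COL9A2 and COL9A3 were called, both lower (15.3% lower over all genes). COL9A2 had 26.1, 22.9 and 17.1 CPM in WT and 9.28, 15.2 and 12.9 CPM in the mutant (-0.82 ± 0.22, padj 0.023). COL9A3 had 6.93, 5.62 and 5.39 CPM in WT and 1.62, 2.84 and 2.32 CPM in the mutant (-1.39 ± 0.29, padj 0.00735). The transcript of COL9A3 was read as a shorter form after D0, with an average effective length of 1769 to 1980 bases at D0 and 706 to 825 bases at D16, and it overlaps TCFL5 on the other strand. The TPM ratio of COL9A3 to COL9A2 was 7.26, 15.5 and 12.1 in WT and 20.5, 22.2 and 21.9 in the mutant at D0, 0.831, 0.893 and 0.973 against 0.536, 0.606 and 0.559 at D16, and 0.0969, 0.154 and 0.226 against 0.0280, 0.0224 and 0.0703 at D30. The genotypes did not overlap on any day, the mutant being above WT at D0 and below it later, and each exact two-sided permutation test gave p = 0.1, the smallest possible, with adjusted p = 0.25.

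Of 5 multiplexins and transmembrane collagens tested at D16, 2 were called lower and 1 higher (15.3% and 13.1% over all genes). COL15A1 (chr9:98943179-99070792) had 37.2, 23.6 and 16.4 CPM in WT and 0.619, 1.12 and 1.85 CPM in the mutant (-4.38 ± 0.39, padj 0.000147). COL18A1 (chr21:45405165-45513720), the other multiplexin, moved the opposite way, from 88.9, 78.3 and 74.5 CPM in WT to 128, 217 and 216 CPM in the mutant (1.21 ± 0.19, padj 0.00207). It overlaps SLC19A1 on the other strand. COL17A1, the transmembrane collagen of hemidesmosomes, had 4.90, 7.15 and 5.39 CPM in WT and 0.696, 1.04 and 1.13 CPM in the mutant (-2.59 ± 0.32, padj 0.000604). COL17A1 was read at an average effective length of 2505 to 5311 bases at D0 and 762 to 1352 bases at D16.

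Markers of other cells moved at D16 beside these genes. Over all genes tested at D16, 13.1% were called higher and 15.3% lower. The summed level of 10 endothelial markers was 121 to 156 TPM in WT and 190 to 218 TPM in the mutant, with 7 of the 10 called higher, none of them at 0 in either genotype. PECAM1 gave 90.79 to 109.9 TPM of these sums in WT and 107.7 to 115.8 TPM in the mutant. The summed level of 6 megakaryocyte and platelet markers was 440 to 521 TPM in WT and 856 to 890 TPM in the mutant, with 5 of 6 called higher. Of 12 stromal markers, 8 were tested, with 3 called lower (FBN1, LUM and TWIST1) and 1 higher (PDGFRB). The summed level of all 12 was 43.2 to 77.1 TPM in WT and 31.4 to 34.7 TPM in the mutant, with PRRX1 at 0 counts in the mutant. LUM, which encodes the fibril-binding proteoglycan lumican, had 41.5, 47.4 and 21.6 TPM in WT and 15.8, 15.4 and 7.15 TPM in the mutant. The part of these cells in the collagen changes was not tested.

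At D30, 25 collagen genes were tested, and 5 were called higher and 2 lower in the USB1 mutant, beside 10.8% higher and 9.75% lower of all 14263 genes tested. The median log2 fold change was 0.388 against -0.008 for all genes tested. The genotypes did not overlap in 6 of these 7 genes, as in 35.8% of all genes tested and 97.7% of all genes called at D30. COL6A3 had 2.04, 3.94 and 4.97 CPM in WT and 21.8, 19.3 and 26.2 CPM in the mutant (2.59 ± 0.31, padj 0.003). COL18A1 had 45.8, 43.3 and 37.9 CPM in WT and 256, 84.6 and 107 CPM in the mutant (1.82 ± 0.38, padj 0.0176), so mutant replicate 1 stood far above the rest, and without it the change was 1.17 (padj 0.00417). COL9A2 (chr1:40300489-40317813) had 12.6, 18.7 and 25.9 CPM in WT and 49.2, 46.0 and 45.1 CPM in the mutant (1.29 ± 0.24, padj 0.012).

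COL8A2 (chr1:36095239-36125222) was the most reduced collagen gene called at D30. It had 35.2, 86.2 and 66.7 CPM in WT and 9.51, 17.6 and 9.34 CPM in the mutant (-2.34 ± 0.37, padj 0.00669), with no overlap. COL15A1 was again lower, with 5.17, 6.08 and 4.97 CPM in WT and 2.72, 2.78 and 1.30 CPM in the mutant (-1.18 ± 0.34, padj 0.0523). The call of COL15A1 at D30 was lost without any 1 of the WT libraries (padj 0.114, 0.177 and 0.129). COL28A1, a collagen related to type VI, had 4.69, 5.88 and 3.76 CPM in WT and 9.41, 7.15 and 8.30 CPM in the mutant (0.78 ± 0.27, padj 0.0945), and its call was lost in each of the 6 fits that left out a library, with padj from 0.105 to 0.267.

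COL3A1 was called higher at D30 although its genotypes overlapped. It had 0.240, 0.598 and 7.71 CPM in WT and 6.89, 16.1 and 54.7 CPM in the mutant (3.18 ± 1.08, padj 0.0892), and the call was lost without WT replicate 1 or 2 or mutant replicate 2 or 3 (padj 0.193, 0.212, 0.114 and 0.257) and with DESeq2 (padj 0.141). Some other fibril-forming chains were high in the same libraries, and some were not. COL5A1 had 0, 0.349 and 2.84 CPM in WT and 0.194, 4.45 and 14.01 CPM in the mutant, and COL11A1 had 0, 0.249 and 2.33 CPM in WT and 0, 0.556 and 7.003 CPM in the mutant. Mutant replicate 3, the library of lowest depth, was the highest in COL3A1, COL5A1 and COL11A1. COL1A1, COL1A2, COL5A2 and COL27A1 were highest there too, while COL24A1 (0.519 CPM), COL5A3 (0.259 CPM) and COL2A1 (0 CPM) were lowest there. COL11A2 had 0 counts in every mutant library of D30. Mutant replicate 3 also had the highest levels of the stromal markers LUM (11.9 TPM, against 0.870 to 4.35 TPM in the others) and THY1 (8.21 TPM, against 0.189 to 0.573 TPM). The stromal markers DCN, PDGFRA, TAGLN, POSTN and TWIST1 were highest there too. MFAP5 was lowest there (1.14 TPM, against 1.77 to 3.55 TPM), and ACTA2, FBN1, PDGFRB and PRRX1 were not highest.

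Markers of other cells also differed between the genotypes at D30. Over all genes tested at D30, 10.8% were called higher and 9.75% lower. Macrophage markers summed to 1870 to 2630 TPM in WT and 711 to 1320 TPM in the mutant, with 4 of 6 called lower and none at 0. Mast cell markers summed to 240 to 292 TPM in WT and 407 to 954 TPM in the mutant, with 4 of 6 called higher and none at 0. Megakaryocyte and platelet markers summed to 21.2 to 45.4 TPM in WT and 48.2 to 92.6 TPM in the mutant. Of 2 tested, 1 was called higher. ITGA2B gave 13.67 to 36.01 TPM and 37.3 to 85.31 TPM of these sums, while ITGB3 overlapped. Hematopoietic markers summed to 1390 to 1510 TPM and 688 to 917 TPM, with 1 of 6 called higher and 2 lower. Endothelial markers summed to 134 to 151 TPM and 73.4 to 119 TPM, with EMCN and CLDN5 at 0 counts in both genotypes. Of 5 tested, 1 was called higher and 1 lower. PECAM1 gave most of these sums (122 to 131.9 TPM in WT and 56.82 to 100.7 TPM in the mutant). PLVAP (1.979 to 4.004 TPM and 5.401 to 5.987 TPM), KDR and ESAM were higher in the mutant without overlap. Stromal markers overlapped, at 25.4 to 34.5 TPM in WT and 32.4 to 62.3 TPM in the mutant. Their part in the changes of COL8A2, COL6A3, COL9A2 and COL18A1 was not tested.

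**Figure D5:**
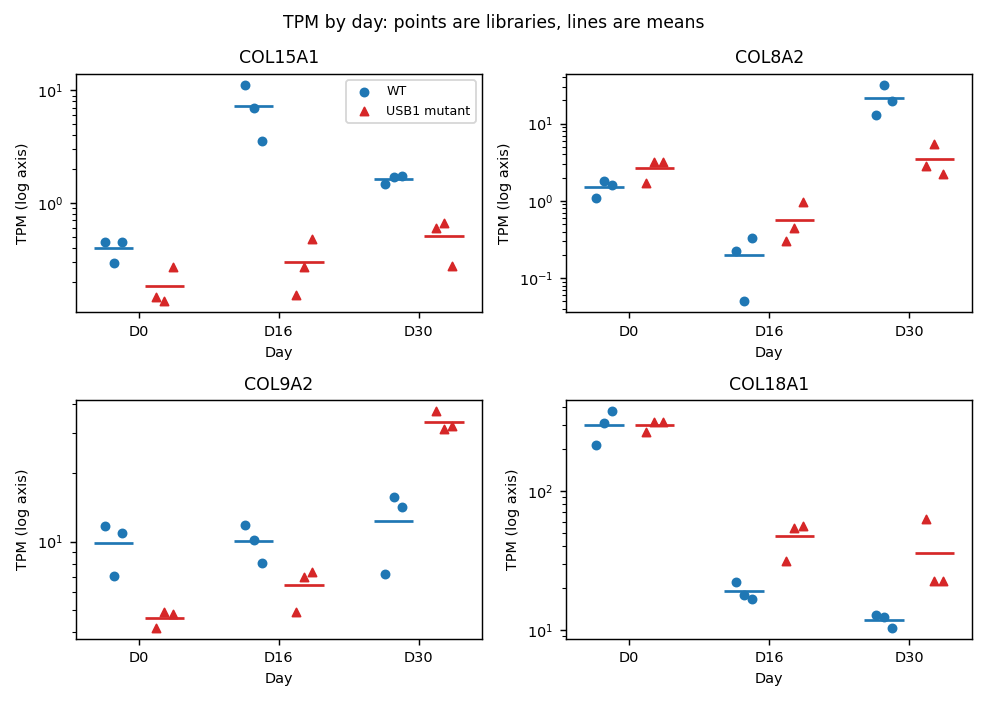
TPM on a log axis (y) of COL15A1, COL8A2, COL9A2 and COL18A1 on each day (x), with circles for WT libraries, triangles for USB1 mutant libraries and lines for means. COL15A1 is far lower in the mutant at D16 (0.152 to 0.477 TPM, against 3.57 to 11.2 TPM in WT), COL8A2 is lower in the mutant at D30, and COL9A2 is lower in the mutant at D0 and D16 but higher at D30.

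The genotype effect itself changed between days for several collagen genes, by a test of the interaction over all 18 libraries. From D0 to D16, 2 of 41 collagen genes had an effect that was called higher at D16 and 3 lower, beside 3.86% and 3.75% of all genes tested. These were COL2A1 (3.37 ± 0.51, padj 0.00182) and COL4A6 (1.39 ± 0.44, padj 0.0905) on the higher side, and COL15A1 (-3.46 ± 0.62, padj 0.00502), COL17A1 (-2.81 ± 0.74, padj 0.0417) and COL9A3 (-1.47 ± 0.31, padj 0.0127) on the lower side. COL4A6 had at most 0.728 CPM in any D16 library. With lengths as offsets the interactions of COL17A1 (padj 0.337) and COL4A6 (padj 0.159) were not called, while COL4A2 was called with lengths (2.61, padj 0.0103) and with the replicate block (1.70, padj 0.0303). The interaction of COL17A1 was also lost without replicate 2 of WT at D0 or D16 or replicate 1 of the mutant at D0 or D16 (padj 0.106 to 0.115), and that of COL4A6 in 11 of the 18 fits without a library (padj up to 0.327).

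From D16 to D30, 4 of 41 were called higher and 3 lower, beside 10.3% and 10.2% of all genes tested. COL8A2, called in the main fits higher in the mutant at D16, at a low level, and lower at D30, had an interaction of -4.05 ± 0.68 (padj 0.000986). COL9A2 went the other way (2.07 ± 0.35, padj 0.000994), lower in the mutant at D16 and higher at D30. COL15A1 was lower on both days and by less at D30 (3.18 ± 0.53, padj 0.000923). COL24A1, raised in the mutant at D16, had 1.68, 6.43 and 6.19 CPM in WT and 2.62, 1.59 and 0.519 CPM in the mutant at D30 and an interaction of -2.55 ± 0.57 (padj 0.0065). COL6A3 (1.49 ± 0.34, padj 0.00767), COL28A1 (1.30 ± 0.38, padj 0.0308) and COL22A1 on chromosome 8 (-2.98 ± 1.15, padj 0.0922) completed the list. With lengths as offsets COL6A3 was not called (0.82, padj 0.557), and COL22A1 had 1, 0 and 0 counts in WT at D16 and was not called with the replicate block (padj 0.121), with lengths as offsets (padj 0.113) or in 10 of the 18 fits without a library (padj up to 0.254).

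The enzymes and chaperones that build collagen were called in both directions. Of 20 genes of intracellular modification and folding, 19 were tested at D16, with 4 called higher and 5 lower (13.1% and 15.3% over all genes) and a median of -0.002. SERPINH1, the collagen-specific chaperone, was higher in the mutant at D16 (1.40 ± 0.18, padj 0.000654) and at D30 (1.18 ± 0.17, padj 0.00579). COLGALT2, a collagen galactosyltransferase (-2.71 ± 0.23, padj 0.000118), and P4HB, the shared subunit of prolyl 4-hydroxylase (-1.21 ± 0.15, padj 0.000627), were lower at D16. At D30, 17 were tested, with 2 called higher and 2 lower (10.8% and 9.75% over all genes), among them the lysyl hydroxylase PLOD1 (-0.68 ± 0.13, padj 0.0116) and the transcription factor CREB3L1 (2.23 ± 0.48, padj 0.0206). At D0 the median of the 19 tested was 0.016.

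Of 15 genes of extracellular processing and crosslinking, 13 were tested at D16, with 5 higher, 1 lower (13.1% and 15.3% over all genes) and a median of 0.456. The lysyl oxidases LOXL3 (0.86 ± 0.14, padj 0.00278) and LOX (0.87 ± 0.19, padj 0.00851) and the peroxidase PXDN, which crosslinks type IV collagen (0.57 ± 0.13, padj 0.0106), were among those that rose. At D0 the procollagen peptidase ADAMTS14 was the only 1 of 15 called (0.88 ± 0.22, padj 0.0936, beside 1.07% higher over all genes), and at D30 the median of the 12 tested was 0.121.

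Basement membrane partners had 5 of 12 tested genes called higher and 1 lower at D16 (13.1% and 15.3% over all genes), with a median of 0.758. FN1 (fibronectin, 1.36 ± 0.24, padj 0.00364), LAMB2 (a laminin chain, 1.13 ± 0.24, padj 0.00835) and HSPG2 (perlecan, 1.03 ± 0.24, padj 0.0129) rose. At D0, 3 of 16 were called, all lower (1.87% over all genes): LAMB1 (-0.51 ± 0.08, padj 0.0207), FN1 (-1.05 ± 0.22, padj 0.053) and LAMA1 (-0.81 ± 0.19, padj 0.089). At D30, 3 of 13 were higher and 2 lower (10.8% and 9.75% over all genes), with LAMC1 at -1.26 ± 0.13 (padj 0.00195), NID2 at 3.60 ± 0.76 (padj 0.0193) and NID1 at -1.04 ± 0.30 (padj 0.0555).

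Collagen receptors and proteases were also called. At D16, 2 of 8 receptors tested were higher and 2 lower (13.1% and 15.3% over all genes), with the inhibitory leukocyte receptor LAIR1 at -1.24 ± 0.15 (padj 0.000577), the endocytic receptor MRC2 at 1.54 ± 0.19 (padj 0.000622) and the osteoclast-associated receptor OSCAR at -1.24 ± 0.27 (padj 0.00878). At D30, 1 of 9 was higher and 3 lower (10.8% and 9.75% over all genes), with ITGA2, the platelet collagen integrin chain, at 3.17 ± 0.59 (padj 0.0118), OSCAR at -1.16 ± 0.23 (padj 0.0138) and LAIR1 at -0.76 ± 0.19 (padj 0.037). At D0 the receptor tyrosine kinase DDR2 was the only 1 of 7 called (0.87 ± 0.16, padj 0.0288, beside 1.07% higher over all genes). Of the collagen-degrading proteases, 4 of 6 tested at D30 were lower (9.75% over all genes), with MMP9 at -2.26 ± 0.19 (padj 0.00133), MMP1 at -2.18 ± 0.24 (padj 0.00216) and CTSK at -1.02 ± 0.16 (padj 0.00639), beside a median of -1.51 for the list. At D16 MMP14 (0.69 ± 0.16, padj 0.0142) rose and CTSK (-1.17 ± 0.29, padj 0.0192) fell among 5 tested (13.1% and 15.3% over all genes), and at D0 the median of 4 was -0.024.

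Among 15732 genes with a mean of at least 1 TPM, those with the pattern most like the 6 leading D0 collagens over the 18 libraries are given as a description, by Pearson's r of log2(TPM + 0.1). They were CAMKV, IGSF3 and SERPINH1 for COL18A1 (r = 0.983, 0.980 and 0.977), KRT8, FLNC and ANKRD1 for COL4A1 (0.990, 0.988 and 0.984), and ADAMTS1, TEAD3 and TLE1 for COL9A3 (0.984, 0.983 and 0.983). COL4A2 was most like RTKN, SCO1 and HRAS (0.979, 0.978 and 0.977), COL5A2 like RASGRF2, CDH2 and INA (0.991, 0.989 and 0.989), and COL1A2 like BOD1, SHF and CHST3 (0.992, 0.989 and 0.986). The 18 points share their day in groups of 6, and no such value was computed within a day.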

How the data were processed

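RNA was measured with rRNA-depleted, stranded libraries. The authors trimmed reads with Trimmomatic 0.36, quantified them with Salmon 0.13.1 against Ensembl transcripts (GRCh38) and deposited, for each gene, TPM, expected counts and average effective transcript lengths in bases. Whether strand was used, and the DESeq2 version, are not given in the sources used here. Expected counts were rounded. Symbols and coordinates came from GENCODE v44, which matched 35051 of 35168 genes, and the 117 others stayed in library sizes and tests.

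Genotypes were compared within each day with edgeR 4.0.16 (R 4.3.3): filterByExpr, TMM, glmQLFit and glmQLFTest. Day changes and interactions came from 1 fit of 6 group means over 18 libraries. The members and lists were chosen with earlier results of these data known. Named were USB1, every collagen gene called, the 6 highest by TPM per day, up to 6 per direction for day changes, up to 3 per partner list and day, and the 3 genes most alike. The sequences shown, and the collagen genes named without a call, were chosen after their values were seen.

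Deviations of same-numbered WT and mutant replicates correlated by 0.178 to 0.333 at D0 and by 0.126 to 0.394 at D16, so these numbers were taken to pair the samples. Those of different numbers correlated by -0.287 to 0.058 at D0 and by -0.313 to 0.100 at D16. The main fits did not use the pairing, which entered only through the replicate block as an alternative. The labels do not say what the numbers share. At D30 the range was -0.062 to 0.318, and the numbers were not taken as pairs. Chain ratios were tested with exact permutations (scipy). The fits were tested on simulated data. Alternatives were RLE scaling, no filter, a filter of 5 CPM in at least 3 libraries, limma-voom (limma 3.58.1), DESeq2 1.42.0, lengths as offsets, a replicate block, a fit over 18 libraries, padj under 0.05, leaving out each library and, added after seeing the data, leaving out replicate 1 of both genotypes at D0.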

Additional observations from a re-analysis of the deposited data

Results flagged for a closer look

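For 11 collagen genes the difference between USB1 mutant and WT was called as changed between neighbouring days, by the interaction test of the fit over 18 libraries. From D0 to D16 these were 2 higher and 3 lower of 41, beside 3.86% and 3.75% of all genes tested. From D16 to D30 they were 4 and 3 of 41, beside 10.3% and 10.2%. With lengths as offsets the calls of COL4A6, COL17A1, COL6A3 and COL22A1 were lost (padj 0.159, 0.337, 0.557 and 0.113). The log2 difference between the genotype effects of D16 and D0 was 3.37 for COL2A1, 1.39 for COL4A6, -1.47 for COL9A3, -3.46 for COL15A1 and -2.81 for COL17A1. That between D30 and D16 was 1.49 for COL6A3, -4.05 for COL8A2, 2.07 for COL9A2, 3.18 for COL15A1, -2.98 for COL22A1, -2.55 for COL24A1 and 1.30 for COL28A1. COL15A1 stands in both, since its genotype difference was widest at D16. With 3 libraries per group, single libraries were not screened for outliers.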

How the results depend on the processing

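For the collagen genes called in a genotype comparison or an interaction, no alternative reversed the direction, and 538 of their values kept the call while 109 lost it. A gene without an adjusted p in a setting gave no value and is in neither number. This was so for COL4A4 at D16 with the filter of 5 CPM. Single genes of the day changes were not followed in this way. At D0 the count of collagen genes called higher was 1 and became 0 with the filter of 5 CPM, limma-voom, lengths as offsets, the fit over 18 libraries or padj under 0.05, and 3 with the replicate block. The count called lower was 2 and became 0 with lengths or padj under 0.05, 1 with the fit over 18 libraries and 5 with the replicate block. At D16 the count called higher went from 7 to 11 with the replicate block, and the count called lower from 7 to 4 with DESeq2. At D30 the count called higher went from 5 to 3 with DESeq2 or padj under 0.05 and to 8 with the fit over 18 libraries, and the count called lower from 2 to 4 with no filter or the fit over 18 libraries and to 1 with the filter of 5 CPM or padj under 0.05. For the interaction from D0 to D16 the count called higher went from 2 to 1 with DESeq2 or padj under 0.05, and for that from D16 to D30 from 4 to 7 with DESeq2. Leaving out 1 library gave 0 to 2 higher (2 without mutant replicate 1 and 0 without any other) and 0 to 3 lower (0 without replicate 3 of either genotype, 1 without WT replicate 2 or mutant replicate 1) at D0, where leaving out replicate 1 of both genotypes together gave 2 higher and 9 lower, 6 to 11 higher (11 without WT replicate 3) and 4 to 6 lower (4 without WT replicate 2 or mutant replicate 1 or 3) at D16, 3 to 5 higher (3 without WT replicate 1 or 2 or mutant replicate 3) and 1 to 2 lower (1 without WT replicate 3) at D30, 4 higher and 28 to 31 lower for WT D0 to D16, 9 to 12 higher and 13 to 19 lower for WT D16 to D30, 1 to 5 higher (5 without mutant replicate 1 of D30) and 2 to 3 lower for the interaction from D0 to D16, and 4 to 7 higher (7 without WT replicate 3 or mutant replicate 1 of D30) and 2 to 5 lower (5 without mutant replicate 3 of D30) for that from D16 to D30. The log2 ratio of summed collagen TPM, mutant over WT, was 0.41 at D16 and 0.11 without COL18A1, and 0.30 at D30 and 0.60 with summed CPM. The cause of these shifts was not tested. Calls over all genes tested also moved with the setting. At D16 they were 1909 higher and 2226 lower of 14528 in the main fit and 2871 and 2907 of 14709 without WT replicate 3. At D30 they were 1543 and 1390 of 14263, and 2539 and 2353 of 16829 with the fit over 18 libraries. The D16 to D30 interaction had 1733 and 1714 of 16829, and 1621 and 1602 of 17142 without mutant replicate 1 of D30. At D30 the numbers do not pair the samples, and there the block called COL4A1, COL5A1 and COL5A2 (padj 0.0242, 0.00585 and 0.07) in addition and lost COL28A1 (padj 0.126). Depth limits the genes near 0 counts, above all in the mutant D30 library of 4125125 counts.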
